A study of Homo sapiens with 6 samples.

Results

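The AP-1, ATF3 and EGR immediate early genes were examined in COV434 cells treated with 4HC. The genes were taken from the gene table by name, namely FOS, FOSB, FOSL1, FOSL2, JUN, JUNB, JUND, ATF3, EGR1 and IER2, and all 10 of them were among its 16798 genes. COV434 is an established human immortalized cell line labelled as granulosa cells, the somatic cells that surround and nourish the oocyte. The 3 treated samples had received 15 µM 4HC, the active metabolite of the chemotherapy drug cyclophosphamide (CTX), for 24 h, and the 3 control samples carried the label WT. Whether the controls received the vehicle, and whether the replicates were separate cultures, was not given in the sources used here, so p-values measure the spread between these samples, which may be technical. All 6 samples came from one line and one time after treatment, and the totals ran from 16133786 to 16702316 expected counts per sample.

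Immediate early genes are the first genes that a cell switches on after a growth signal or a stress, before any new protein is needed. FOS proteins pair with JUN proteins through a leucine zipper to form the AP-1 transcription factor, which binds short palindromic sites in DNA, whereas JUN proteins can also pair with one another. ATF3 is a stress-induced bZIP factor that pairs with JUN proteins, EGR1 is a zinc finger factor that binds GC-rich sites, and IER2 is a small nuclear protein induced by the same signals. In granulosa cells these factors are known as rapid targets of gonadotropin signalling. The transcripts are mostly short-lived, and a sample taken at 24 h reads the level at that time, not an early peak.

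The labelled cell type was checked against its markers. FOXL2, the transcription factor that defines granulosa cells, was at 0 TPM in 5 of 6 samples and at 0.11 TPM in 4HC 2. The gonadotropin receptor FSHR and the aromatase gene CYP19A1 did not exceed 0.01 and 0.02 TPM. AMH, which growing follicles secrete, stood between 3.94 and 6.73 TPM. Of the 14 granulosa markers measured, 9 stayed under 0.5 TPM in every sample, and the summed level of the 14 was 287–300 TPM in control and 236–241 TPM in 4HC, most of it from NR5A2 and WT1. The 12 markers of other cell types summed to 51.7–53.5 TPM in control and 51.4–52.6 TPM in 4HC, most of it from LUM, and PECAM1 and VWF did not exceed 0.04 TPM. The cells are therefore named here by their label, COV434.

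The sequences just upstream of 3 of the genes are shown for stretches whose letters match known promoter elements. They are RefSeq sequences of build GRCh38.p14, 210 bases ending at the base before the start that RefSeq gives, read 5′ to 3′ on the strand of the gene. In EGR1, at chr5:138465269-138465478 on the plus strand, capitals mark the EGR site, the CGTCA letters (TGACG read on the other strand) and the 2 CArG boxes. In JUNB, at chr19:12791276-12791485 on the plus strand, they mark TGACG and a TATA box. In JUND, at chr19:18281623-18281832 on the minus strand, they mark a full CRE and CGTCA.
EGR1: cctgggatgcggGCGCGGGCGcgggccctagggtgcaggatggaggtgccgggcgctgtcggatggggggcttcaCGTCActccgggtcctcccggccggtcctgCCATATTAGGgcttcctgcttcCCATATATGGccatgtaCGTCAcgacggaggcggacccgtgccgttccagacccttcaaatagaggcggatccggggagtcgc
JUNB: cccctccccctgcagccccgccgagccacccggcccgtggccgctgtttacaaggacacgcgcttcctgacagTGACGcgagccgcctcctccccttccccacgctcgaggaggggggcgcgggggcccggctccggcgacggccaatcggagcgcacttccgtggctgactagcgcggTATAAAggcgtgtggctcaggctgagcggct
JUND: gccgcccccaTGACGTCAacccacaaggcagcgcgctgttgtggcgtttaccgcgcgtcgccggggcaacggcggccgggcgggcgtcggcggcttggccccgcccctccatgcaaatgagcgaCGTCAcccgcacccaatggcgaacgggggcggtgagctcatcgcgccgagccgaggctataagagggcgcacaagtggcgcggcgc
A short stretch of JUN, at chr1:58784097-58784124 on the minus strand, is shown for the site in capitals, which is known as an element where JUN and ATF proteins bind. The site lies 67 bases before the RefSeq start at 58784047. The deposited table sets the start of JUN further upstream, at 58784396, so in those coordinates the stretch lies within the gene.
JUN: ggccttggggTGACATCAtgggctattt

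A RefSeq entry was found for 9 of the 10 genes, all but FOSL1, and ATF3 had 2 starts. The 250 bases before each start were searched on both strands, and the share of all 35116 windows that held the same letters is given beside each count. The motifs were chosen with the sequences in view, and a match is a run of letters, not evidence of binding. The CArG box, the site of serum response factor, was present in EGR1 alone, at 105 and 83 bases before the start, and in 1.16% of all windows. TGACGTCA, the full CRE, was present in JUND alone, at 200 bases, and in 1.65% of all windows. TGACATCA was present in JUN and in the upstream ATF3 window, at 67 and 123 bases, and in 2.37% of all windows. TGACG, which is also part of TGACGTCA, was present in 8 of the 9 genes, all but ATF3, against 21.2% of all windows. TGACTCA or TGAGTCA, the AP-1 site itself, was present in none of the 9 and in 4.2% of all windows. GCGNGGGCG, an EGR site, was present in EGR1 alone, at 198 bases, against 8.41%. GGGCGG was present in 7 of the 9, against 42.6%. TATAAA was present in FOS, FOSB and JUNB, at 33, 30 and 31 bases, and in the second ATF3 window much further off, at 230 bases, against 10.7%. No match says only that these letters were not in this window.

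Compared with control, EGR1, JUNB, FOSL2, IER2, FOS and FOSL1 rose in 4HC-treated COV434 cells and JUN fell, and FOSB, JUND and ATF3 did not pass the test. Apart from FOSL1, which had few counts, the changes were small, the largest being that of EGR1, at 1.40-fold. By edgeR's quasi-likelihood test with Benjamini-Hochberg adjustment over the 12368 genes tested, 6 of the 10 genes were called higher, against 19.2% of all genes, and 1 of the 10 was called lower, against 17.1%. The calls of FOS and JUN were lost in 5 and 8 of 15 alternative analyses. The number called higher was 4 with DESeq2, which gave FOSL1 no adjusted p, and 5 to 6 with 1 sample removed at a time. In either direction 36.4% of all genes were called, with an adjusted p under 0.05. FOSL1 passed the filter on low counts only through the 4HC samples, and without it 5 of 9 were called higher. The median log2 fold change was 0.30 over the 10 genes and 0.28 without FOSL1, beside 0.00 over all genes. Since the libraries come from bulk RNA, a change in the RNA per cell and a change in the share of cells that express a gene cannot be told apart.

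**Figure D1:**
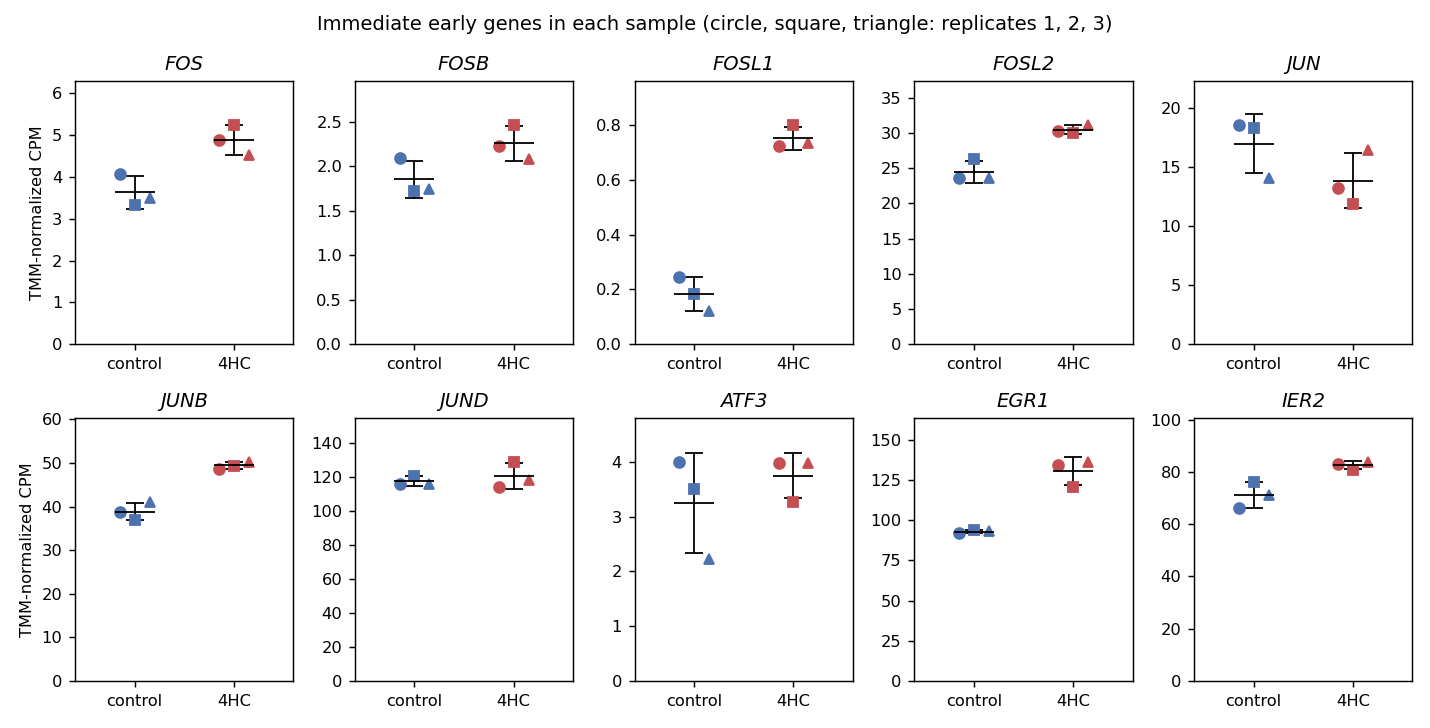
Library-scaled counts (CPM) of the 10 genes in each sample, with 1 panel per gene and its own axis starting at 0. Points are the 3 control and 3 4HC samples, and bars are the mean and SD (n = 3). The 4HC points lie wholly above the control points for FOS, FOSL1, FOSL2, JUNB, EGR1 and IER2, and the groups overlap for the other 4 genes.

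Among the FOS family, FOSL2 was the most abundant, FOSL2 and FOS rose, and FOSL1 rested on few counts. FOSL2, a FOS protein that lacks the strong activation domain of FOS, lies on chromosome 2 from 28392855 to 28429364 on the plus strand with 4 exons (GRCh38). Its level, in counts scaled by library size (CPM), was 23.6, 26.3 and 23.6 CPM in control 1 to 3 and 30.4, 30.0 and 31.2 CPM in 4HC 1 to 3. Every 4HC sample stood above every control sample. The mean rose from 24.5 ± 1.58 to 30.5 ± 0.604 CPM (SD, n = 3), a log2 fold change of 0.32 (SE 0.0637, adjusted p = 7.49e-05).

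FOS, the founding member and a partner of JUN, lies on chromosome 14 from 75278828 to 75282230 on the plus strand with 4 exons. It was measured at 4.07, 3.32 and 3.50 CPM in control and at 4.89, 5.24 and 4.53 CPM in 4HC. The groups did not overlap, though the gap was narrow, from 4.07 in control 1 to 4.53 in 4HC 3. The mean rose from 3.63 ± 0.389 to 4.89 ± 0.356 CPM, and the fitted log2 fold change was 0.43 (SE 0.155, adjusted p = 0.0251). This call was lost with DESeq2, at an adjusted p of 0.112, the highest of its 15 alternatives, whose adjusted p ran from 0.00941 to 0.112. It was also lost without control 2 (log2 fold change 0.37), control 3 (0.40), 4HC 1 (0.42) or 4HC 2 (0.37).

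FOSB, which neurons and other cells induce together with FOS, lies on chromosome 19 from 45467996 to 45475181 on the plus strand with 4 exons. Its values were 2.10, 1.72 and 1.75 CPM in control and 2.23, 2.47 and 2.08 CPM in 4HC. The highest control sample stood within the 4HC range. The log2 fold change was 0.28, with a 95% interval from -0.15 to 0.71, which covers no change and a rise to 1.64-fold (adjusted p = 0.318). The ERCC1 gene overlaps all 7186 bases of FOSB, and as the strandedness of the libraries was not given in the sources used here, reads of the 2 genes may not be separable. ERCC1, a DNA repair endonuclease subunit, was far more abundant, at 113 ± 3.33 CPM in control and 121 ± 3.65 CPM in 4HC.

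FOSL1, known as FRA-1 and itself a target of AP-1 in many cells, lies on chromosome 11 from 65892049 to 65900545 on the minus strand with 4 exons. It rested on 4, 3 and 2 counts in control and 12, 13 and 12 counts in 4HC, which is 9 against 37 in all. In CPM these were 0.247, 0.185 and 0.121 in control and 0.724, 0.802 and 0.735 in 4HC, with 3 counts equal to 0.180–0.186 CPM. The groups did not overlap. The ratio per read of the summed counts was 4.16 (exact 95% interval 1.97 to 9.81, counting error only), and the fitted log2 fold change was 1.99 (SE 0.474, adjusted p = 0.000666). FOSL1 passed the filter on low counts only through its 4HC samples. The interval and the adjusted p therefore describe these counts and are not read as support for a rise. On the log2(TPM + 1) scale, which shrinks changes of low genes, the difference was 0.58.

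**Figure D2:**
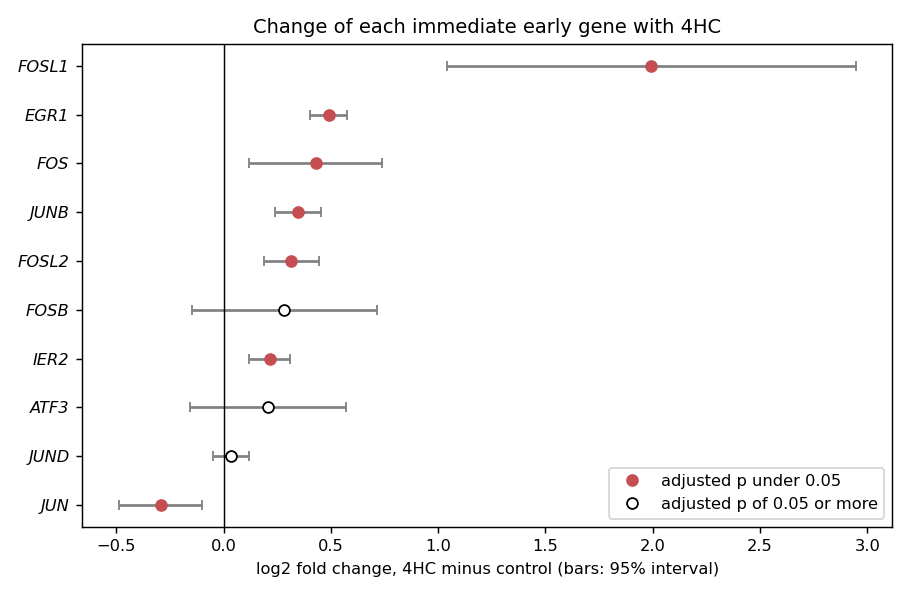
Log2 fold change, 4HC against control, of the 10 genes by edgeR, with bars showing the 95% interval and a line at 0. The interval lies above 0 for EGR1, JUNB, FOSL2, IER2, FOS and FOSL1, below 0 for JUN, and covers 0 for FOSB, JUND and ATF3.

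In the JUN family JUNB was called higher and JUN lower, and JUND did not pass the test. The differences between these genes were not themselves tested. JUNB, which often restrains the growth-promoting activity of JUN, lies on chromosome 19 from 12791476 to 12793315 on the plus strand as a single exon. It was measured at 38.7, 36.9 and 41.0 CPM in control and at 48.7, 49.3 and 50.3 CPM in 4HC. Every 4HC sample exceeded the highest control sample by more than the control range. The mean rose from 38.9 ± 2.02 to 49.4 ± 0.815 CPM, and the fitted log2 fold change was 0.35 (SE 0.0541, adjusted p = 7.58e-07). HOOK2 overlaps 1107 bases of JUNB and gave 7.79 CPM in control and 8.55 CPM in 4HC, with a log2 fold change of 0.13 (adjusted p = 0.383).

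JUN, the archetypal AP-1 subunit and a target of the JNK kinases, lies on chromosome 1 from 58780791 to 58784396 on the minus strand as a single exon. It was measured at 18.6, 18.3 and 14.1 CPM in control and at 13.2, 11.8 and 16.4 CPM in 4HC. Control 3 lay below 4HC 3, so the groups overlapped. The mean went from 17.0 ± 2.52 to 13.8 ± 2.34 CPM, and the fitted log2 fold change was -0.29 (SE 0.0965, 95% interval -0.49 to -0.10, adjusted p = 0.0135). The call was lost in 8 of 15 alternatives, whose adjusted p ran from 0.00027 to 0.152. It was lost without control 1 (log2 fold change -0.23), control 2 (-0.24) or 4HC 2 (-0.20), with DESeq2 (-0.30, adjusted p = 0.0687) and with limma on log2(TPM + 1) (-0.27, adjusted p = 0.106). No alternative turned its direction.

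JUND, the JUN protein that most cells keep at a steady level, lies on chromosome 19 from 18279694 to 18281622 on the minus strand as a single exon. Its values were 116, 121 and 116 CPM in control and 114, 129 and 118 CPM in 4HC. 4HC 1 lay below the control samples, 4HC 2 above them and 4HC 3 among them. The mean was 118 ± 2.71 CPM in control and 121 ± 7.74 CPM after treatment, and the fitted log2 fold change was 0.03 with a 95% interval from -0.05 to 0.12 (adjusted p = 0.566). That interval holds changes up to 1.09-fold. Without 4HC 2, the highest sample, the estimate was -0.02.

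ATF3, a stress-induced partner of JUN proteins, lies on chromosome 1 from 212565407 to 212624494 on the plus strand, and its main transcript has 4 exons. Its values were 4.01, 3.51 and 2.23 CPM in control and 3.98, 3.27 and 3.98 CPM in 4HC. Control 3 stood apart from the other 5 samples, which lay between 3.27 and 4.01 CPM. The log2 fold change was 0.21 with a 95% interval from -0.16 to 0.57 (adjusted p = 0.395). Without control 3 it was -0.01, so the positive estimate rested on that sample. The 2 samples with the lowest JUN in their group, control 3 and 4HC 2, were also those with the lowest ATF3.

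EGR1, the zinc finger factor that LH signalling induces in granulosa cells, showed the smallest adjusted p of the 10 genes. It lies on chromosome 5 from 138465479 to 138469303 on the plus strand with 2 exons, and its 2 CArG boxes are printed above. It was measured at 91.7, 93.9 and 93.0 CPM in control and at 134, 120.5 and 136 CPM in 4HC. The lowest 4HC sample, 4HC 2, stood well above the control samples, which lay close together. The mean rose from 92.9 ± 1.08 to 130.4 ± 8.68 CPM, and the fitted log2 fold change was 0.49 (SE 0.0431, adjusted p = 1.10e-13), and it stayed between 0.46 and 0.54 in all 15 alternatives.

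IER2, a nuclear protein of the immediate early class, lies on chromosome 19 from 13150411 to 13154911 on the plus strand with 2 exons. It was measured at 66.4, 76.2 and 71.3 CPM in control and at 83.1, 80.9 and 84.0 CPM in 4HC. The lowest 4HC sample, at 80.9 CPM, stood above the highest control sample, at 76.2 CPM. The mean rose from 71.3 ± 4.91 to 82.7 ± 1.58 CPM, and the fitted log2 fold change was 0.21 (SE 0.047, adjusted p = 0.000243). STX10, a syntaxin of the Golgi, shares 57 bases with IER2 and rose from 62.2 ± 2.64 to 75.5 ± 2.48 CPM (log2 fold change 0.28, SE 0.0472, adjusted p = 3.84e-06), and whether it contributes to the IER2 counts was not tested.

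Of the 10 genes, 6 had 4HC samples wholly above the control samples, against 23.4% of all genes tested, and none had them wholly below. The 6 include FOSL1, whose passing of the filter through the 4HC samples favours such a separation. In either direction the groups did not overlap for 45.3% of all genes. For any 1 gene, an exact permutation test of 3 against 3 cannot give a two-sided p below 0.1, so the calls rest on the fit across all genes. FOSL1 alone, which passed the filter on low counts through the 4HC samples, was called with a fold of at least 2 upward, against 1.02% of all genes upward and 1.15% in either direction, and nothing is read from that.

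Levels were compared between genes on the TPM scale, which corrects for transcript length. In control cells the order of the means was JUND (112 TPM), IER2 (61.2), EGR1 (51.0), JUNB (39.4), JUN (8.93), FOSL2 (6.09), FOS (3.13), ATF3 (3.03), FOSB (0.847) and FOSL1 (0.247). The samples of FOS and ATF3 overlapped, and no other neighbours in that order did. In 4HC-treated cells the order was JUND (114 TPM), EGR1 (71.2), IER2 (70.6), JUNB (49.8), FOSL2 (7.42), JUN (7.24), FOS (4.18), ATF3 (3.48), FOSB (1.02) and FOSL1 (0.863). The samples of EGR1 and IER2, of FOSL2 and JUN, and of FOSB and FOSL1 overlapped there. EGR1 thus stood below IER2 in control and overlapped it in 4HC, as FOSL2 did with JUN. COV434 cells therefore held far more JUND, IER2, EGR1 and JUNB transcript than transcript of any FOS gene.

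**Figure D3:**
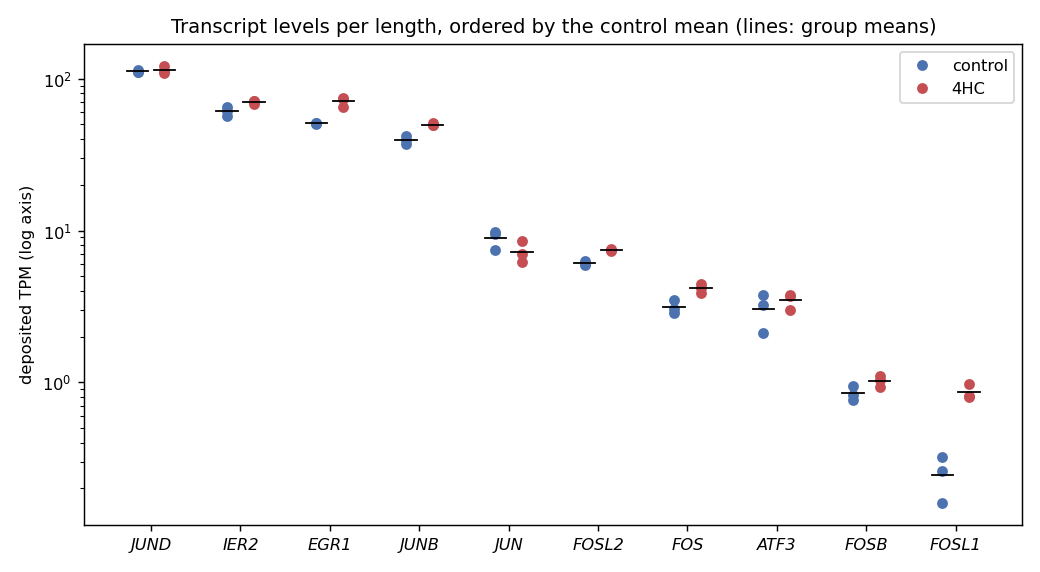
TPM of the 10 genes on a log axis, with 1 point per sample, control and 4HC side by side, ordered by the control mean. JUND lies highest, near 112 TPM, and FOSB and FOSL1 lie lowest, at or under about 1 TPM.

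Summed over each family, the FOS genes gave 10.7, 10.2 and 10.0 TPM in control and 13.4, 13.9 and 13.1 TPM in 4HC. The JUN genes gave 160.1, 161 and 161 TPM in control and 166, 177 and 171 TPM in 4HC. Neither pair of groups overlapped. The JUN sum was 15.6 ± 0.559 times the FOS sum in control and 12.7 ± 0.374 times in 4HC. Within the JUN sum JUND made up 69.9% in control and 66.7% in 4HC, JUNB 24.5% and 29.1%, and JUN 5.55% and 4.23%. Within the FOS sum FOSL2 made up 59.1% and 55.1%, FOS 30.3% and 31.0%, FOSB 8.20% and 7.55%, and FOSL1 2.38% and 6.39%. These shares are descriptions of members seen to differ and were not tested.

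The genes differed in how closely replicates agreed. The SD of log2 CPM within groups was 0.0715 for the median gene tested. JUNB (0.0555), FOSL2 (0.0677), JUND (0.0687), EGR1 (0.0702) and IER2 (0.073) lay near that value. FOS (0.129) and FOSB (0.137) lay above it, and both had few counts, at 54 to 85 and 28 to 40 per sample. JUN (0.231), FOSL1 (0.274) and ATF3 (0.327) were at the 89.7, 92.2 and 94.6 percentiles of all genes tested, and FOSL1 and ATF3 also had few counts. Control 3 was below its group mean by 0.26 in JUN, by 0.49 in ATF3 and by 0.40 in FOSL1. 4HC 2 was below its group mean by 0.21 in JUN, by 0.19 in ATF3 and by 0.11 in EGR1.

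**Figure D4:**
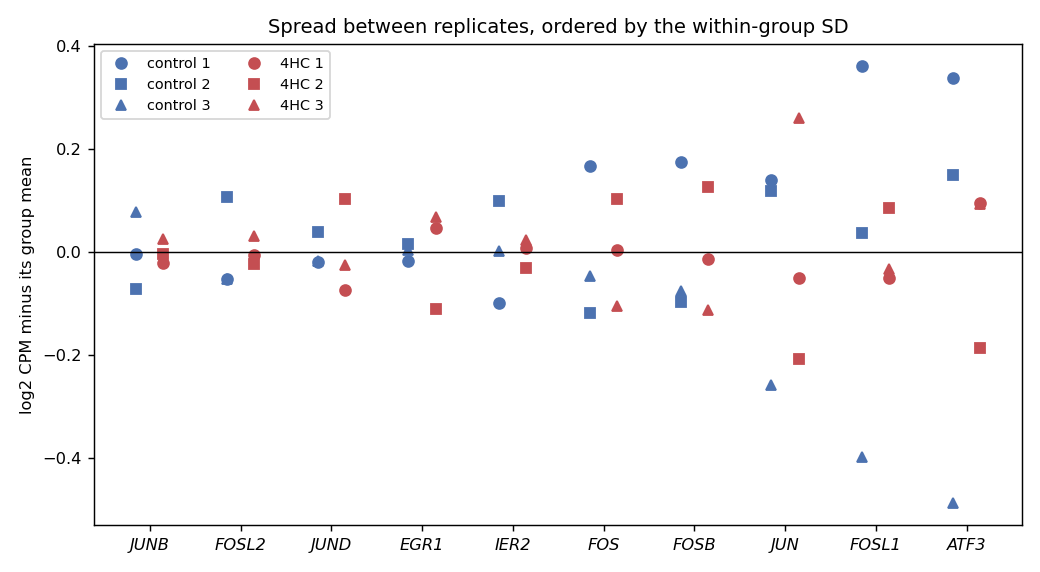
Deviation of each sample from its group mean, in log2 CPM, for each of the 10 genes, with control and 4HC samples in separate colours. JUN, ATF3 and FOSL1 spread most, and control 3 lies lowest for these 3 genes.

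At the transcript level, all counts of FOS, JUN, JUNB, EGR1 and IER2 were assigned to 1 transcript each. FOSL2 had 96% of its counts in 1 transcript, which went from 387 ± 19.6 to 476 ± 7.07 expected counts with no overlap of the groups. ATF3 had 89% in 1 of its 5 listed transcripts, at 47.5 ± 12.3 in control and 54.2 ± 11.8 in 4HC, and the groups overlapped. JUND was listed as 2 records with equal counts in every sample, so they carry no separate information. The counts of FOSB changed between transcripts from sample to sample, its main one being at 25.7, 28 and 0 in control and at 13.3, 31.8 and 29.8 in 4HC, so no isoform is compared for it. The 4 transcripts of FOSL1 behaved likewise.

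Other genes of the same pathways were listed by role and read against the 19.2% of all genes called higher and the 17.1% called lower. These lists were made with earlier results of these data known. Of 43 other immediate early genes, 39 were tested, and 17 of them (43.6%) rose and 7 (17.9%) fell, with a median log2 fold change of 0.14. PLK3, a stress-activated kinase, rose from 7.54 ± 0.360 to 21.5 ± 1.83 CPM (log2 fold change 1.51, SE 0.0919, adjusted p = 1.47e-19). BTG2, an antiproliferative gene that is also a p53 target, rose from 83.3 ± 1.44 to 202 ± 8.76 CPM (1.28, SE 0.0402, adjusted p = 7.67e-32). IER5, a relative of IER2, rose from 9.28 ± 0.436 to 20.5 ± 1.67 CPM (1.14, SE 0.0883, adjusted p = 1.19e-15). EGR2, a paralogue of EGR1, had 1, 7 and 10 counts in control and 18, 13 and 19 counts in 4HC, or 0.365 ± 0.277 and 1.02 ± 0.190 CPM (1.45, SE 0.407, adjusted p = 0.00375). It passed the filter only through the 4HC samples, and without it 16 of 38 genes of the list rose, with a median of 0.13. The genes named so far all rose. Among the 7 that fell, KLF6 changed most, from 43.7 ± 1.08 to 26.2 ± 1.04 CPM (-0.74). RHOB came next, going from 86.7 ± 1.51 to 59.7 ± 2.05 CPM (-0.54). The NR4A nuclear receptors, chosen here after their values were seen, went both ways, NR4A1 from 4.65 to 7.96 CPM, NR4A3 from 15.6 to 22.5 CPM and NR4A2 from 413 to 371 CPM, all 3 called.

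Of 29 partner and related bZIP factors, 23 were tested, 3 rose and 7 fell, with a median of -0.07. BACH2, a repressor that competes for AP-1 sites, fell from 5.50 ± 0.766 to 3.89 ± 0.438 CPM (log2 fold change -0.50, SE 0.151, adjusted p = 0.00701). ATF4, the main factor of the integrated stress response, fell from 340.4 ± 5.52 to 285 ± 6.73 CPM (-0.26, SE 0.0331, adjusted p = 1.04e-08). DDIT3, its target CHOP, rose from 20.4 ± 1.37 to 24.2 ± 0.839 CPM (0.25, SE 0.0698, adjusted p = 0.00376). MAFF, a small MAF protein, rose from 6.53 ± 0.220 to 8.45 ± 0.793 CPM (0.37, SE 0.118, adjusted p = 0.0106). The number called higher ranged from 1, without 4HC 2, to 4 when single samples were left out.

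Upstream of the 10 genes, 31 of 32 MAP kinases and SRF or TCF factors were tested, 7 rose and 5 fell, with a median of 0.06. The number called lower was 3 without control 2 or with limma on log2(TPM + 0.1), and 1 with limma on log2(FPKM + 1). RPS6KA1, the ERK-activated kinase RSK1, rose from 32.2 ± 1.6 to 50.1 ± 1.91 CPM (log2 fold change 0.64), and MAPK11, a p38 kinase, from 32.2 ± 0.604 to 46.3 ± 1.56 CPM (0.52). MAP2K6, which activates p38, fell from 20.1 ± 0.660 to 16.1 ± 0.986 CPM (-0.33). MAP3K1 was called with overlapping groups, at 5.73 ± 1.19 and 7.21 ± 0.435 CPM (0.33, adjusted p = 0.0463).

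Downstream, 13 of 22 AP-1 target genes were tested, 4 rose and none fell, with a median of 0.01, and 2 rose with DESeq2 or without control 3 or 4HC 2. The cytokine gene LIF rose from 2.53 ± 0.368 to 8.43 ± 0.625 CPM (log2 fold change 1.73, SE 0.148, adjusted p = 4.47e-14). IL11, of the same cytokine family, was measured at 0.817 ± 0.320 and 1.57 ± 0.301 CPM (0.94, adjusted p = 0.00984). IL11 reached the filter in every 4HC sample but not in every control sample, and without it 3 of 12 rose, with a median of 0.00. FTH1, the ferritin heavy chain, rose from 326 ± 11.1 to 418 ± 11.3 CPM (0.36, adjusted p = 5.44e-13). HMGA1 was called with overlapping groups, at 237 ± 12.6 and 259 ± 18.0 CPM (0.13).

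Of 12 EGR1 co-repressors and target genes, 9 were tested, 4 rose and 2 fell, with a median of 0.11, and 2 rose without control 1 or 4HC 2 and 1 with limma on log2(TPM + 1) or log2(TPM + 0.1). IGF2 rose from 4.79 ± 0.358 to 8.10 ± 0.429 CPM (log2 fold change 0.76) and TGFB1 from 34.8 ± 1.42 to 40.0 ± 3.28 CPM (0.20). NAB1, which binds and represses EGR1, fell from 291 ± 2.34 to 249.97 ± 9.78 CPM (-0.22), and VEGFA fell from 83.1 ± 1.75 to 69.5 ± 2.19 CPM (-0.26). NAB2, the other co-repressor of the list, went the other way, from 38.6 ± 1.28 to 42.9 ± 2.49 CPM (0.15), and was called higher. Of the 10 genes for turnover of AP-1 mRNA and protein, 1 rose and 3 fell, with a median of -0.07, and 1 fell without control 3 or with limma on log2(FPKM + 1), while 2 rose with library size scaling or any of the 3 limma fits. FBXW7, the ubiquitin ligase subunit that targets JUN for degradation, rose from 24.9 ± 1.19 to 39.6 ± 1.65 CPM (0.67, SE 0.0608, adjusted p = 3.65e-13). ELAVL1, an RNA-binding protein that stabilizes AU-rich messages, fell from 177 ± 4.08 to 155 ± 3.44 CPM (-0.19), HNRNPD from 363 ± 15.0 to 334 ± 8.79 CPM (-0.12) and ITCH from 99.5 ± 1.54 to 92.2 ± 4.87 CPM (-0.11).

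For scale, all 18 genes of a p53 target list rose, with a median of 0.83. CDKN1A, the cell cycle inhibitor p21, rose from 225 ± 7.25 to 783 ± 18.0 CPM (log2 fold change 1.80), GDF15 from 6.71 ± 1.11 to 29.2 ± 1.34 CPM (2.12) and FDXR from 86.8 ± 2.67 to 216 ± 11.9 CPM (1.32). EGR1, at 0.49, lay below the median of that list. Of 5 granulosa markers tested, 2 fell, WT1 from 218 ± 1.44 to 171 ± 2.59 CPM (-0.35) and NR5A2 from 388 ± 9.90 to 309.7 ± 12.7 CPM (-0.33), and none of 5 tested markers of other cell types was called.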

How the data were processed

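RNA sequencing was performed on 3 control and 3 4HC-treated COV434 samples. Reads were filtered with SOAPnuke and aligned to GRCh38.p13, and the submitters' processing notes name HISAT2, Bowtie2 and RSEM 1.3.1. The authors deposited expected counts (RSEM), TPM and FPKM for 16798 genes, TPM and FPKM being normalized by the authors for length and depth, and expected counts for 79213 transcripts. The deposited fold changes, p-values and q-values of the authors' own test were not used, and a second gene table held identical values.

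Expected counts, of which 85.5% were whole, were rounded. Genes were filtered with filterByExpr, normalized by TMM and tested with edgeR 4.0.16 (R 4.3.3), quasi-likelihood, control against 4HC, with Benjamini-Hochberg adjustment over 12368 genes and a threshold of 0.05. CPM are counts scaled by the TMM library size. Alternatives were DESeq2 1.42.0, other scalings and filters, limma 3.58.1 on log2(TPM + 1), log2(TPM + 0.1) and log2(FPKM + 1), a replicate block and leaving out each sample. Replicates of a group differed by more than sampling noise, with a chi-square of 1.70–2.46 per gene.

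The members and gene lists were chosen with earlier results of these data known. All 10 members were named, and in each list up to 4 called genes with the largest change and a group mean of 1 CPM or more, as well as FOXL2, AMH, FSHR, CYP19A1 and genes that overlap a member. The NR4A genes, KLF6, RHOB and NAB2 were added after their values were seen. Gene coordinates are those of the deposited table, strand and exon numbers came from GENCODE 29, and promoters came from RefSeq.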

Additional observations from a re-analysis of the deposited data

How the results depend on the processing

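EGR1, JUNB, FOSL2 and IER2 kept their direction and their call in all 15 alternatives, and FOSL1 in the 13 that gave it an adjusted p. FOSL1 had none under a minimum of 10 counts in every sample or with DESeq2. Over these 13 the estimate for FOSL1 ran from 0.43, a difference on log2(FPKM + 1), to 2.25, the log2 fold change without control 1. The log2(FPKM + 1) scale, like log2(TPM + 1), shrinks changes of low genes. FOS was no longer called with DESeq2 (0.42, adjusted p = 0.112), and JUN was no longer called with DESeq2 (-0.30), limma on log2(TPM + 1) (-0.27), log2(TPM + 0.1) (-0.30) or log2(FPKM + 1) (-0.23). With DESeq2 or any of these 3 limma fits 0 of the 10 genes were called lower. The causes were not tested. With 1 sample removed at a time, log2 fold changes ran from 0.37 to 0.51 for FOS, from -0.43 to -0.20 for JUN, from -0.0205 to 0.0659 for JUND and from -0.0053 to 0.38 for ATF3, the reversed estimates being those of JUND without 4HC 2 (-0.0205) and of ATF3 without control 3 (-0.0053). The number of the 10 genes called lower was then 0 to 1 and the number called higher 5 to 6.

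Deviations of same-numbered samples of the groups had correlations of -0.05, 0.00 and 0.13. With 3 samples per group, these cannot decide whether the numbers pair the samples. With a replicate block, 2259 genes were called higher and 1954 lower, against 2379 and 2118 without it, and 6 of the 10 genes were higher and 0 lower, JUN being at -0.29 (adjusted p = 0.0567). Not every sample correlated best with its own number.

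Counts at a fold of at least 2 depended most on low genes. Upward they were 126, with 246 without a filter, 79 with a minimum of 10 counts, 36 with limma on log2(TPM + 1) and 30 on log2(FPKM + 1). Downward they were 16, with 78 without a filter, 4 with the minimum, 1 on log2(TPM + 1), 8 on log2(TPM + 0.1) and 0 on log2(FPKM + 1), and 21 to 31 when single samples were left out. On log2(FPKM + 1), 1343 genes were called lower, against 2118, and 14 genes of the lists, against 24. No scaling moved the median of all genes by over 0.1. FOSL1 rests on 2 to 13 counts per sample.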
